A study of Mus musculus with 20 samples.

Results

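The genes described here are the 3 peroxisome proliferator-activated receptors (Ppara, Ppard and Pparg), their coactivators Ppargc1a and Ppargc1b, the 3 retinoid X receptors (Rxra, Rxrb and Rxrg) and Cpt1a, a classical target of the receptors. Members were chosen by name, and their probes were found through the RefSeq transcript that the scanner files pair with each probe. The 9 genes are 9 of 20972 genes with a probe on the array, and they have 15 of its 55681 probes. All 15 probes passed the filter on low signal, as did 31516 probes in all, and all 15 were well above background on each of the 20 arrays.

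Peroxisome proliferator-activated receptors are nuclear receptors that bind fatty acids and their derivatives and switch on genes of lipid handling. Each binds DNA as a pair with a retinoid X receptor, and the pair recruits coactivators such as PGC-1α, the product of Ppargc1a, which also drives mitochondrial biogenesis. In the brain, Ppara and Ppard have been linked to fatty acid oxidation and to the control of inflammation in glia and neurons, and Rxrg is prominent among the retinoid X receptors of the striatum.

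The study crossed expression of Tat, the trans-activator protein of HIV-1, with methamphetamine (Meth) in male C57BL/6J mice. Tat− mice carried only the doxycycline-responsive regulator under the GFAP promoter, which is active in astrocytes, and Tat+ mice also carried a Tat transgene that this regulator turns on, so that Tat was made by astrocytes and not delivered by a virus. There were 5 mice, and 5 arrays, in each of 4 groups: Tat−/Meth (Tat-Meth+ in the labels), Tat−/Sal (Tat-Meth-), Tat+/Meth (Tat+Meth+) and Tat+/Sal (Tat+Meth-). Mice received 2 mg/kg Meth or 0.9% saline for 7 days, and every mouse received doxycycline at 100 mg/kg. The labels give an age of 6 to 7 weeks, the left hemisphere of the perfused brain and a sample taken 24 h after the last injection. The methods differ from the labels: they give an older age and the caudate putamen, and add a period of abstinence and a Meth challenge for all mice, the saline groups included. A comparison of a Meth group with a saline group is, by the methods, one of repeated Meth with a single exposure. In Tat+/Meth against Tat−/Sal, Tat differs as well.

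Levels are log2 intensities after each array was brought to a common 75th percentile, so a difference of 1 is a 2-fold change. All 5 Tat−/Meth arrays lay on slide 1, which held no other group. Slide 2 carried Tat−/Sal (5 arrays) beside 3 arrays of Tat+/Meth. Slide 3 carried Tat+/Sal (5 arrays) beside the other 2 of Tat+/Meth. The bright corner control spots, read before scaling, lay between 14.66 and 15.06 log2 units on slide 1 and between 16.8 and 17.42 on the other 15 arrays. Tat−/Meth and slide 1 cannot be told apart in any comparison below. All 9 striatal projection neuron markers were well above background on at least 3 arrays of every group. So were 4 of the 5 tested cortical and hippocampal markers in Tat+/Sal and 5 in the other groups: Tbr1 and Neurod2 were well above background on 20 arrays, Prox1 on 19, Slc17a7 on 18 and Neurod6 on 12.

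Promoters of these genes were searched for AGGTCA, the hexamer that nuclear receptors of this class bind, on both strands of the 300 bases around each start (250 before it) in RefSeq for GRCm38.p6. The hexamer was found in 16.3% of 32851 promoters and at 5 of the 13 starts of the 8 members in that table. The paired form AGGTCANAGGTCA, the arrangement favoured by these receptor pairs, was found in 0.0396% of all promoters and at none of the 13 starts. The windows with the hexamer are shown because they belong to receptors that the family may itself read and to its target Cpt1a. All 5 starts lie inside the span that RefSeq gives the gene, downstream of its first base. Each line runs 5′ to 3′ on the gene's strand, up to the transcript start at most, with the hexamer or its complement in capitals.
Rxrg, internal start, chr1:167618147-167618212, plus strand: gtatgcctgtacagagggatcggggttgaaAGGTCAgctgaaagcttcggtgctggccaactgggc
Rxra, internal start, chr2:27709175-27709279, plus strand: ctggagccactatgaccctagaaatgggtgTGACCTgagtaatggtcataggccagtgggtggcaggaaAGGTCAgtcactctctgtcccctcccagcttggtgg
Pparg, internal start, chr6:115361086-115361143, plus strand: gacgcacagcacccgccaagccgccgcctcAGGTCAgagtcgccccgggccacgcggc
Pparg, internal start further downstream, chr6:115362310-115362348, plus strand: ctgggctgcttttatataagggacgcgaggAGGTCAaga
Cpt1a, internal start, chr19:3323177-3323242, plus strand: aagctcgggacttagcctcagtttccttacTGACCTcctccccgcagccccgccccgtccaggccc
The promoter of Ppara, the gene with the most probes here, held no copy of the hexamer in this window.

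The first question was what repeated Meth did to these genes in mice without Tat. In Tat−/Meth against Tat−/Sal, 8 of the 15 probes passed an adjusted p of 0.05 over all probes tested (limma, Benjamini–Hochberg), 4 of them lower and 4 higher. The 4 that fell did so by over 2-fold and belonged to Ppara, Ppargc1b, Rxra and Rxrg. The 4 that rose did so by less than 2-fold and belonged to Ppard, Ppargc1a, Rxrb and Cpt1a. Over all probes, 50.3% passed, 10.9% were over 2-fold lower and 28.1% were higher, and the median change was 0.1 against −0.1 for the 15 probes. By the brightest probe of each gene, 7 of the 9 genes passed, against 49.3% of 15103 genes. The share of member probes that passed (53.3%) was near that of all probes. The shares of genes, and of probes over 2-fold lower, were higher among the members, which rest on 9 genes and 4 probes and were not tested against the array.

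**Figure D1:**
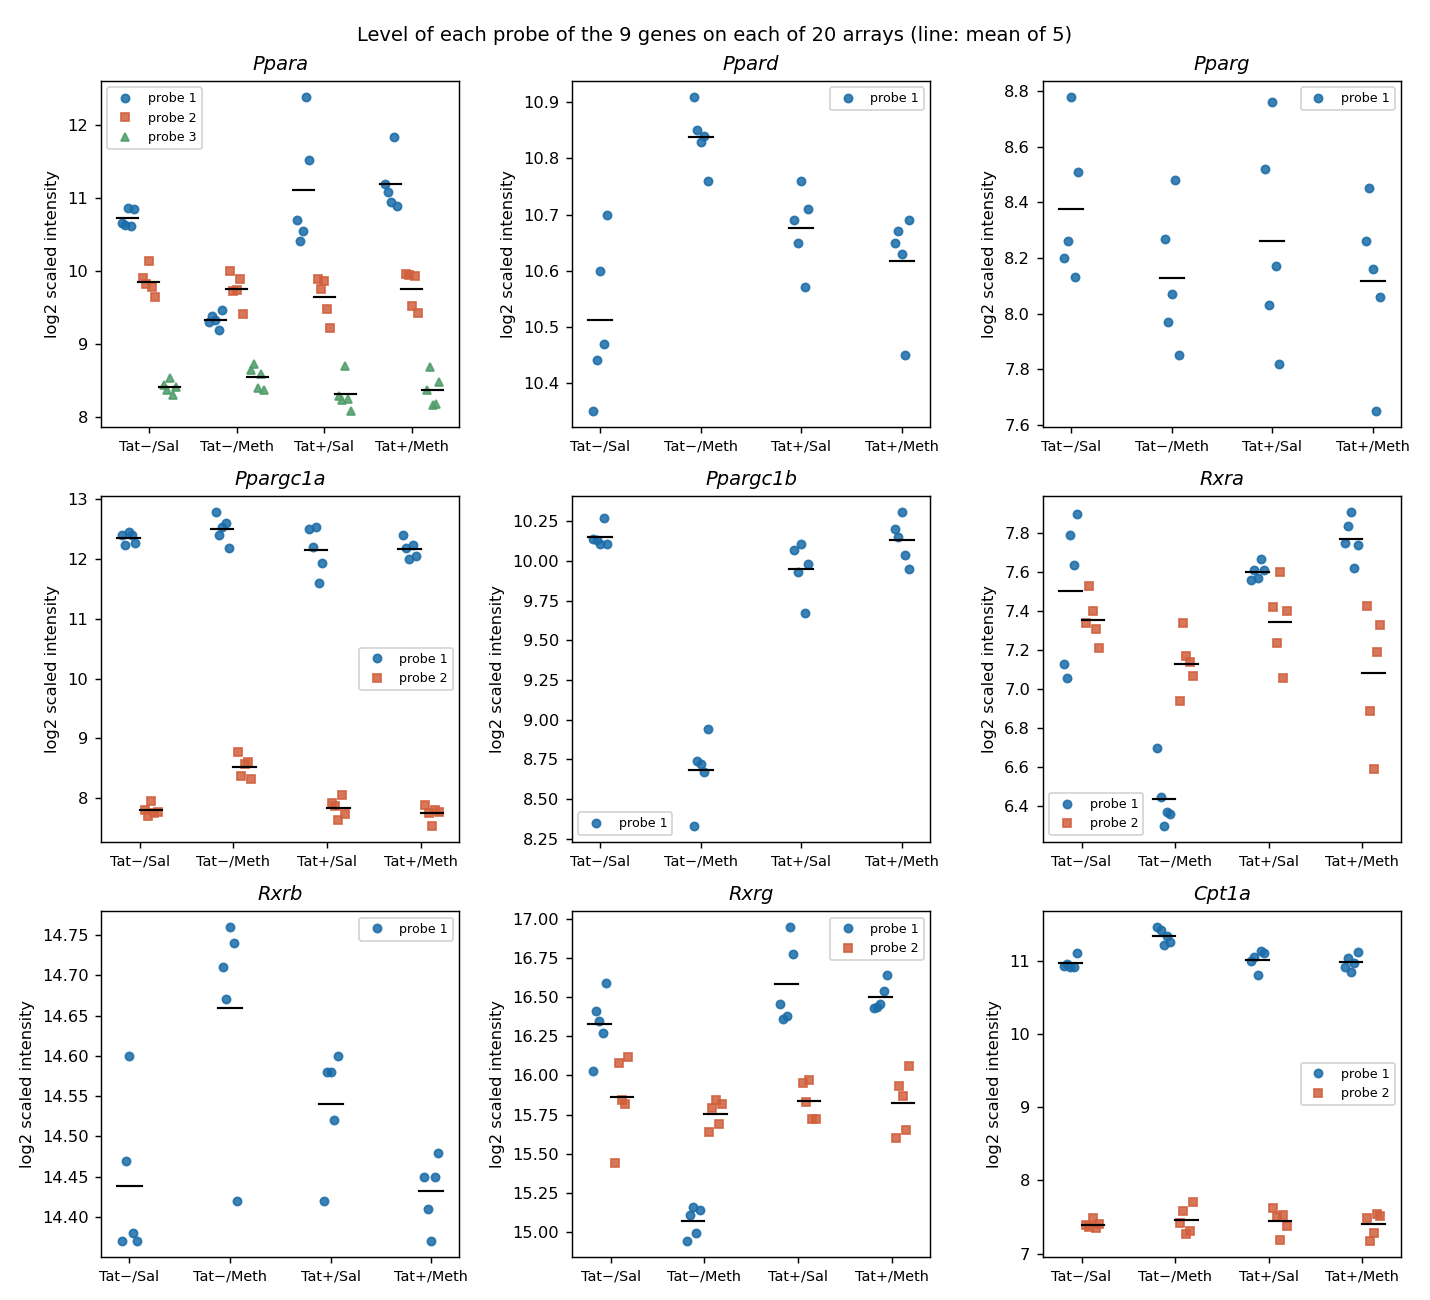
Each panel is a gene, each point an array, and each symbol a probe; the vertical axis is the log2 intensity scaled to the 75th percentile (its range differs between panels), and the line is the mean of 5 arrays. Ppara, Rxra and Rxrg each have a probe whose Tat−/Meth values lie below all other arrays beside another probe of the same gene that does not separate the groups.

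Ppara is the receptor that governs fatty acid oxidation and ketogenesis in the fasting liver. Its gene lies at chr15:85734910-85806851 (GRCm38.p6), and it had 3 probes, all assigned to the same RefSeq transcript. On probe 1, the brightest, the Tat−/Sal arrays read 10.66, 10.64, 10.87, 10.62 and 10.85. The Tat−/Meth arrays read 9.30, 9.39, 9.34, 9.19 and 9.47, so no array of one group reached the other. Tat+/Meth arrays read 11.19, 11.08, 10.95, 11.84 and 10.90, all above the Tat−/Sal arrays. Tat+/Sal arrays read 10.70, 10.41, 10.55, 12.39 and 11.53 and were the most spread of the groups, with an SD of 0.83 against 0.12 in Tat−/Sal. With Meth, Ppara probe 1 fell by 1.39 ± 0.28 (SE, n = 5 per group), a 2.62-fold change with an adjusted p of 0.000443.

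The other 2 Ppara probes showed no such difference. Probe 2 read 9.65 to 10.14 in Tat−/Sal and 9.41 to 10.00 in Tat−/Meth, and the groups overlapped. Its change was −0.10 (95% interval −0.41 to 0.21, adjusted p = 0.579). Probe 3 read 8.31 to 8.54 in Tat−/Sal and 8.37 to 8.73 in Tat−/Meth, a change of 0.14 (−0.10 to 0.37, adjusted p = 0.329). The intervals of probes 2 and 3 did not reach the fall of probe 1. Where in the transcript each probe lies was not analysed here, so an exon or isoform cannot be assigned to the difference. With the mean over the 3 probes in place of the brightest, the change of Ppara was −0.45, still past the threshold (adjusted p = 0.0011).

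Ppard, the most widely expressed of the receptors, had 1 probe. It read 10.35, 10.44, 10.60, 10.47 and 10.70 in Tat−/Sal and 10.91, 10.85, 10.83, 10.84 and 10.76 in Tat−/Meth. Every Tat−/Meth array lay above every Tat−/Sal array. It rose by 0.33 ± 0.07 (adjusted p = 0.000493), a 1.25-fold change. Median scaling ended this call (adjusted p = 0.0523), and without scaling the value was −0.10 (adjusted p = 0.369).

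Pparg, the receptor of fat cell differentiation, had 1 probe, printed in 10 spots on every array. It read 8.20, 8.26, 8.78, 8.13 and 8.51 in Tat−/Sal and 8.27, 7.97, 8.07, 8.48 and 7.85 in Tat−/Meth. The groups overlapped, and the change of −0.25 (95% interval −0.63 to 0.14) did not pass (adjusted p = 0.27).

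Among the coactivators, Ppargc1b carried the largest fall of the 15 probes. PGC-1β, its product, acts with nuclear receptors and with SREBP factors on mitochondrial and lipid genes. Its only probe read 10.14, 10.13, 10.11, 10.27 and 10.11 in Tat−/Sal and 8.33, 8.74, 8.72, 8.67 and 8.94 in Tat−/Meth. The groups were separated by more than the range within either. Ppargc1b fell by 1.47 ± 0.10 (adjusted p = 1.35e-09), a 2.77-fold change. Having no second probe, it could not be checked in the way Ppara could.

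Ppargc1a, which encodes the better known PGC-1α, had 2 probes that differed. Probe 2 read 7.81, 7.71, 7.95, 7.76 and 7.77 in Tat−/Sal and 8.77, 8.38, 8.57, 8.60 and 8.32 in Tat−/Meth, with no overlap. It rose by 0.73 ± 0.09 (adjusted p = 3.52e-06), a 1.65-fold change, and without scaling of the arrays the rise was 0.31 (adjusted p = 0.0761). Probe 1, the brighter, read 12.22 to 12.44 in Tat−/Sal and 12.17 to 12.78 in Tat−/Meth. Those groups overlapped and the change was 0.15 (95% interval −0.17 to 0.46, adjusted p = 0.428). The mean over both probes rose by 0.44 (adjusted p = 0.0011), so that the call for Ppargc1a depends on the probe or mean that stands for it.

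Retinoid X receptors are the shared partners of the 3 receptors above. Rxra lies at chr2:27676445-27763319 and had 2 probes. Probe 1 read 7.13, 7.06, 7.79, 7.64 and 7.90 in Tat−/Sal and 6.70, 6.45, 6.30, 6.37 and 6.36 in Tat−/Meth. The groups did not overlap, and Rxra probe 1 fell by 1.07 ± 0.13 (adjusted p = 2.84e-06), a 2.10-fold change. Under normexp background correction with an offset the fall was 0.48, and with the mean over the probes 0.65, both still past the threshold. Probe 2 read 7.34, 7.53, 7.40, 7.31 and 7.21 in Tat−/Sal and 6.94, 7.34, 7.17, 7.14 and 7.07 in Tat−/Meth, a change of −0.23 (95% interval −0.51 to 0.06, adjusted p = 0.173) with groups that overlapped.

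Rxrg, at chr1:167598362-167639623, is the retinoid X receptor with the narrowest expression and is known from striatal projection neurons. Its probe 1 read 16.03, 16.41, 16.35, 16.27 and 16.59 in Tat−/Sal and 14.94, 15.11, 15.16, 14.99 and 15.14 in Tat−/Meth. Every Tat−/Meth array was lower than every Tat−/Sal array, and Rxrg probe 1 fell by 1.26 ± 0.11 (adjusted p = 4.03e-08), a 2.40-fold change. Its probe 2 read 15.44, 16.08, 15.84, 15.82 and 16.12 in Tat−/Sal and 15.64, 15.79, 15.84, 15.69 and 15.82 in Tat−/Meth. The probe 2 groups overlapped, with a change of −0.11 (95% interval −0.35 to 0.13, adjusted p = 0.45). With the mean over both probes the fall was 0.68.

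Rxrb, the ubiquitous member, had 1 probe. It read 14.37, 14.47, 14.60, 14.38 and 14.37 in Tat−/Sal and 14.71, 14.67, 14.76, 14.74 and 14.42 in Tat−/Meth. In Tat−/Meth, 4 of the 5 arrays lay above all Tat−/Sal arrays and the fifth lay among them. Rxrb rose by 0.22 ± 0.07 (adjusted p = 0.00869), a call that ended under median scaling (adjusted p = 0.154), under normexp correction (adjusted p = 0.103) and without scaling, where the value was −0.20.

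Cpt1a encodes the carnitine palmitoyltransferase that admits long-chain fatty acids to mitochondria. Its probe 1, printed in 10 spots, read 10.93, 10.95, 10.91, 10.92 and 11.11 in Tat−/Sal and 11.46, 11.42, 11.21, 11.34 and 11.26 in Tat−/Meth. The groups did not overlap, and Cpt1a probe 1 rose by 0.37 ± 0.07 (adjusted p = 0.000287), a 1.30-fold change. Without scaling the value was −0.05. Probe 2 read 7.35 to 7.48 in Tat−/Sal and 7.27 to 7.71 in Tat−/Meth, and its change of 0.06 (95% interval −0.14 to 0.26) did not pass (adjusted p = 0.605), although it did after normexp correction (0.25, adjusted p = 0.0234).

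**Figure D2:**
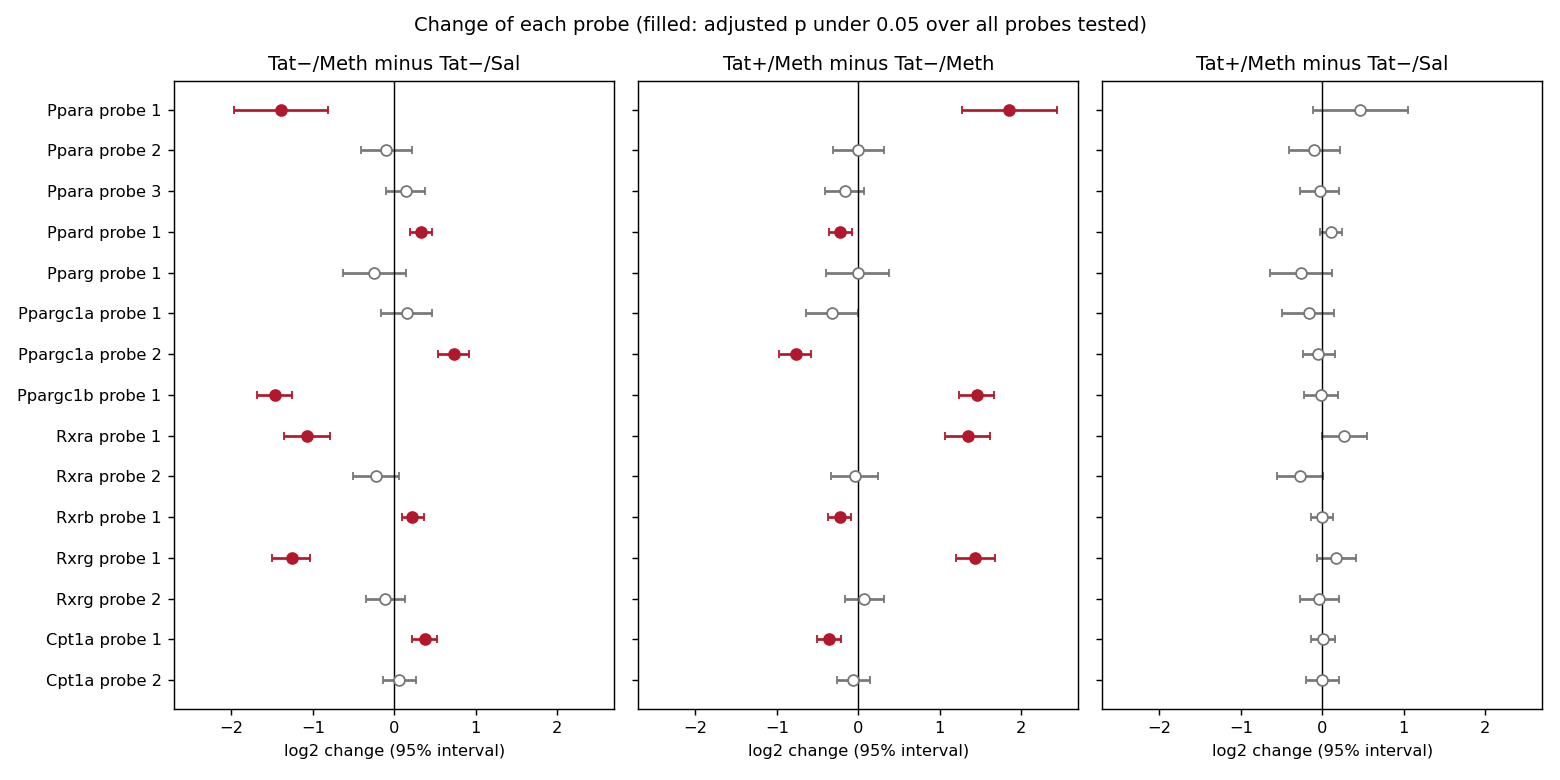
Points are the log2 changes of the 15 probes in 3 comparisons, with bars for the 95% interval of the fit; filled points had an adjusted p under 0.05. In the first panel the probes of Ppara, Rxra and Rxrg part within a gene (−1.39 against −0.10 and 0.14 for Ppara), and in the last panel no probe passed.

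Probes of one gene therefore differed in whether they passed for each of the 5 members with more than 1 probe. The difference between probes was not tested, and for Cpt1a the 95% intervals of the 2 probes overlapped. In 3 of them (Ppara, Rxra and Rxrg) 1 probe was over 2-fold lower and the rest did not pass, and in Ppargc1a and Cpt1a 1 probe rose and the other did not pass. This was common on the array: of 3898 genes with at least 2 tested probes, 248 had a probe over 2-fold lower, and in 232 of these (93.5%) at least 1 other probe of the gene was not. The fallen probe was the brightest in 139 of the 248 genes, as it was in Ppara, Rxra and Rxrg. All 4 fallen member probes carried names of the same Agilent series, which has 9 of the 15 member probes, and 10.2% of the 15411 tested probes of that series were over 2-fold lower against 4.18% of the 5163 probes of the series that holds 5 other member probes. Over all tested probes the share was 10.9%, near that of the first series. It was 11.2% in the series of the Ppard probe, which did not fall, and 23.5% in a series without member probes. What sets the fallen probes apart was not tested. Without scaling of the arrays, when the median of all probes was −0.32, every probe of Ppara, Rxra and Rxrg was lower past the threshold, as were Pparg and Cpt1a probe 2 (−0.36). The probes that were not 2-fold lower then gave −0.52 and −0.28 for Ppara, −0.65 for Rxra and −0.53 for Rxrg, and Pparg gave −0.67, so that the split in size within each gene was kept and the calls were not.

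Within an array, repeated spots of a probe agreed. The 2 spots of Ppara probe 1 differed by at most 0.25 log2 units on any array, and the 10 spots of Cpt1a probe 1 had an SD of at most 0.053. For Pparg the SD of 10 spots was at most 0.13. Ppara probe 3 had 1 array with an SD over 0.2 (0.434). The spread of Ppara probe 1 among Tat+/Sal arrays was thus a difference between arrays and not between spots.

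Over the 20 arrays with the group means subtracted, probes of one gene followed each other at most loosely, and some ran opposite ways. Pearson's r was −0.27 and −0.35 between Ppara probe 1 and probes 2 and 3, and 0.51 between probes 2 and 3. It was −0.42 between the Rxra probes, 0.34 between the Rxrg probes, 0.19 between the Ppargc1a probes and 0.28 between the Cpt1a probes. These are descriptions over 20 arrays that share slides and scaling.

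The next question was what Tat changed among mice given Meth. In Tat+/Meth against Tat−/Meth, 8 of the 15 probes passed, 4 higher by over 2-fold and 4 lower, where 53.5% of all probes passed, 11.3% were over 2-fold higher and 30.3% were lower. By the brightest probe, 7 of 9 genes passed, against 53.4% of all genes. This comparison shares the Tat−/Meth arrays with the first, so its values are given beside it and are not a second measurement. Ppara probe 1 rose by 1.85 ± 0.28 (adjusted p = 2.2e-05), and probes 2 and 3 differed by 0.00 and −0.17 (adjusted p = 0.988 and 0.218). Ppargc1b rose by 1.45 ± 0.10, Rxra probe 1 by 1.34 ± 0.13 and Rxrg probe 1 by 1.43 ± 0.11, and their adjusted p-values were 1.53e-09, 1.68e-07 and 6.97e-09. Ppargc1a probe 2 fell by 0.77, Cpt1a probe 1 by 0.36, Rxrb by 0.23 and Ppard by 0.22. The calls of Rxrb and Ppard ended under median scaling, and without scaling both were above 0 (0.11 and 0.12) and Cpt1a probe 1 no longer passed (−0.02). Ppargc1a probe 1 was 0.32 lower with an adjusted p of 0.0803, which was 0.0342 without the Tat−/Meth replicate 5 and also without the Tat+/Sal replicate 4.

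In the interaction (the change with Meth among Tat+ animals minus the same change among Tat− animals), 8 of 15 probes passed, 4 positive by over 2-fold and 4 negative. Over all probes, 37.0% passed, 11.7% were over 2-fold positive and 18.1% were negative, and by brightest probe 7 of 9 genes passed against 35.4% of all genes. The positive differences were 1.65 ± 0.14 for Ppargc1b, 1.46 ± 0.39 for Ppara probe 1, 1.24 ± 0.19 for Rxra probe 1 and 1.18 ± 0.16 for Rxrg probe 1. The negative ones were −0.82 for Ppargc1a probe 2, −0.41 for Cpt1a probe 1, −0.38 for Ppard and −0.33 for Rxrb. The interaction contains the Tat−/Meth arrays, and with them slide 1.

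The remaining comparisons contain no slide 1 array, and no member passed in any of them (limma). In Tat+/Meth against Tat+/Sal, 0 of 15 probes had an adjusted or an unadjusted p under 0.05, where 0.0% of all probes passed and 11.5% had an unadjusted p under 0.05. In Tat+/Meth against Tat−/Sal the members again gave 0 and 0, with 0.00317% of all probes passing (1 probe) and 6.31% unadjusted. In Tat+/Sal against Tat−/Sal, 0 of 15 passed, where 0.708% of all probes did, and 2 had an unadjusted p under 0.05 (16.6% of all probes): Ppard, 0.16 higher in Tat+/Sal (adjusted p = 0.224), and Rxrg probe 1, 0.26 higher (adjusted p = 0.255). By the methods' t-test without adjustment, 2, 1 and 2 of the 9 genes, each by its brightest probe, had a p under 0.05 in these comparisons in the same order. After adjustment it was 0 of the 9 genes in each. Without adjustment the same test gave 11.1%, 8.18% and 16.6% of all probes. Those are shares of probes and not of genes, so they are a rough guide to the gene counts.

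Bounds from these comparisons differed by gene. For Ppargc1b, Tat+/Meth against Tat−/Sal gave −0.02 with a 95% interval of −0.23 to 0.19, and for Rxrg probe 1 0.17 (−0.06 to 0.41), so that a 2-fold change lay outside both. For Ppara probe 1 the value was 0.46 (−0.12 to 1.05), and a 2-fold rise lay inside the interval. In Tat+/Meth against Tat+/Sal, Ppara probe 1 gave 0.07 (−0.51 to 0.66) and Ppargc1b 0.18 (−0.03 to 0.39).

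**Figure D3:**
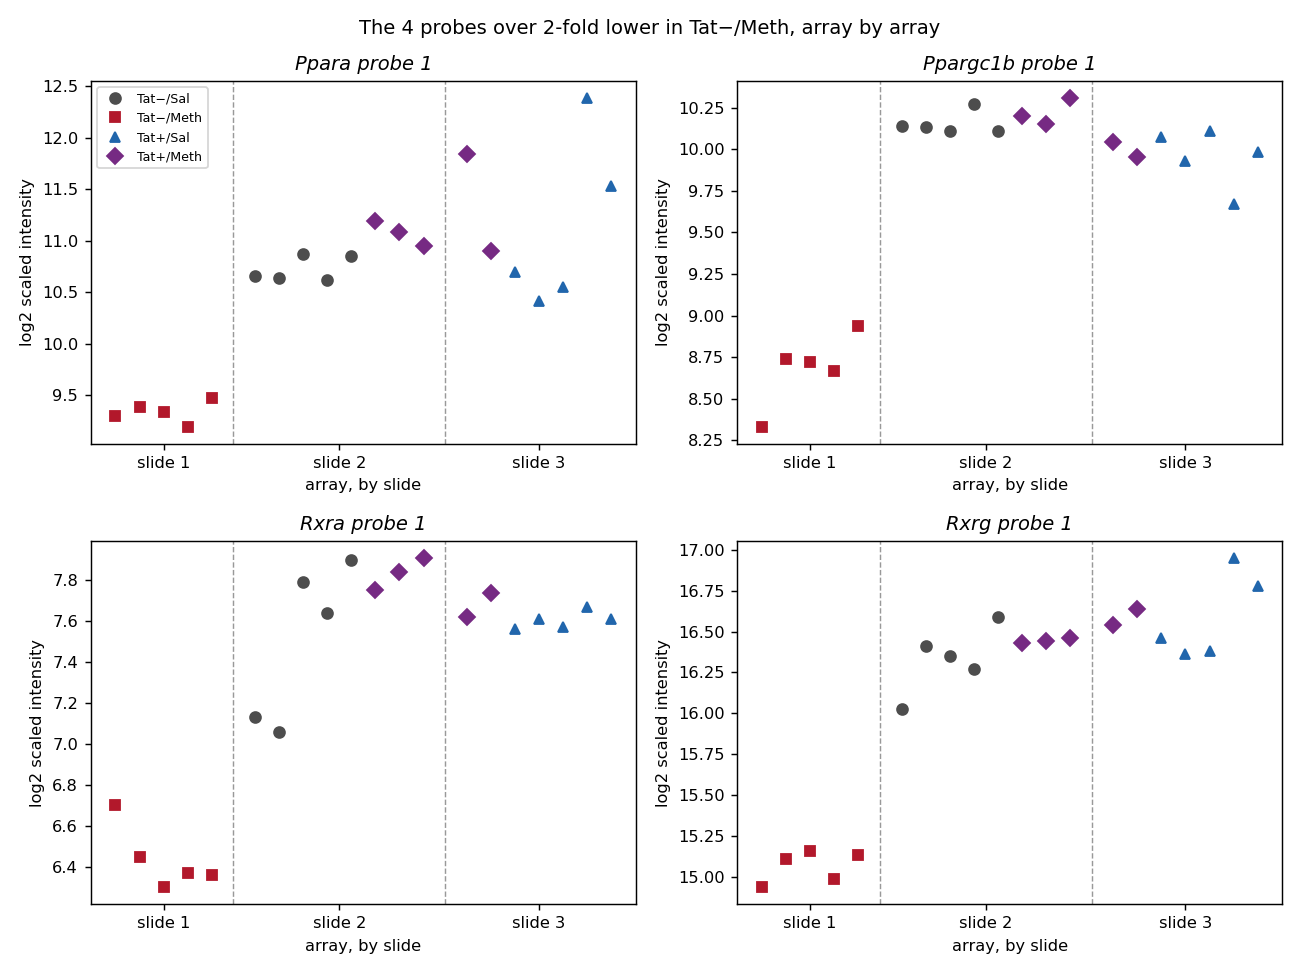
Each point is an array, placed by its slide, and the symbol gives its group; the vertical axis is the scaled log2 intensity of probe 1 of Ppara, Ppargc1b, Rxra and Rxrg, shown because they were over 2-fold lower in Tat−/Meth. Those arrays are alone on slide 1 and lowest in these 4 panels, and on slides 2 and 3 the Tat+/Meth points lie among the others or within 0.1 of them, apart from Ppara, where the slide 2 values of 10.95 to 11.19 are above the Tat−/Sal range.

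Tat+/Meth arrays were the only ones of a group on 2 slides. On slide 2, against the Tat−/Sal arrays beside them, Ppara probe 1 was 0.34 higher (adjusted p = 0.541), Rxra probe 1 0.33 higher (adjusted p = 0.612) and Rxra probe 2 0.39 lower (adjusted p = 0.547), and the other 12 probes lay between −0.15 and 0.14. On slide 3, against Tat+/Sal, Ppara probe 1 was 0.25 higher and Pparg 0.40 lower, with an adjusted p of 1 for all 15 probes. No member passed with slide as a fixed block either, in the 3 comparisons that this block leaves.

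Other genes of the pathway were followed through 6 lists. Of 34 tested genes of fatty acid oxidation and PPARα targets (Cpt1a among them), 17 rose (50%) and 3 fell (8.82%) in Tat−/Meth against Tat−/Sal, and 14 did not pass. Over all genes 34.3% rose and 15.1% fell, and the difference between the list and the array was not tested. The median change was 0.30 over the list and 0.14 over all 15103 genes. Without scaling these medians were −0.12 and −0.28. Hadha, a subunit of the mitochondrial trifunctional protein, read 9.27 ± 0.08 (SD, n = 5) in Tat−/Sal and 10.38 ± 0.09 in Tat−/Meth, a rise of 1.11 ± 0.07 (adjusted p = 9.33e-10). Acaa2, the last enzyme of the mitochondrial spiral, rose by 0.53 ± 0.06 (adjusted p = 6.43e-07). Named after their values were seen, the 3 genes that fell were Cyp4a10 and Cyp4a14, fatty acid hydroxylases and strong PPARα targets in liver, and Slc27a1, a fatty acid transporter. Cyp4a10 read 8.74 ± 0.36 (SD) in Tat−/Sal and 6.68 ± 0.34 in Tat−/Meth on its brighter probe, and its other probe was not over 2-fold lower. Cyp4a14 was well above background on all 5 arrays of Tat−/Sal and on none of Tat−/Meth, and was at least 2.0-fold lower there (adjusted p = 3.97e-06). That bound takes the higher of its own signal and the lowest signal well above background on each dim array. Slc27a1 was lower by 0.65 (adjusted p = 0.0358).

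Lists around the coactivators are read against the same shares of all genes, 34.3% higher and 15.1% lower. Of 20 genes of PGC-1 partners and mitochondrial biogenesis, 9 rose (45%) and 4 fell (20%), none by 2-fold, with a median of 0.07. Mef2d, a transcription factor that PGC-1α coactivates, rose by 0.37 ± 0.06, and Prkaa2, a catalytic subunit of AMP-activated kinase, by 0.31 ± 0.05. Of 7 neuronal genes that depend on PGC-1α, 1 passed: Inf2, a formin, was lower by 0.28. Among 18 nuclear receptor coregulators, 8 rose and 1 fell, and the 50% that passed was near the 49.3% of all genes. The smallest adjusted p-values were those of Med1, the mediator subunit that binds these receptors, which rose by 0.55 ± 0.05, and of the coactivator Ncoa1, which rose by 0.42 ± 0.06. Without scaling the median change was −0.35 over the PGC-1 partners and −0.22 over the coregulators, against −0.28 over all genes. The changes of single genes named here are from scaled arrays and depend on that scaling.

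Among 11 tested dimer partners of the retinoid X receptors, 2 passed (18.2%, against 49.3% of all genes), both lower: Nr1i3, the constitutive androstane receptor, from 7.93 ± 0.31 (SD) to 5.71 ± 0.84, and Nr1h4, the bile acid receptor, from 6.23 ± 1.51 to 4.77 ± 0.66. In Tat−/Meth Nr1i3 was well above background on 3 of 5 arrays and Nr1h4 on 1. Nr1h4 was well above background on 4 of 5 arrays in Tat−/Sal and on 6 arrays over all groups. The size of its fall therefore cannot be read, because most of its values lay near background. The Nr1h4 mean reached the filter limit of 6 in Tat−/Sal and not in Tat−/Meth or Tat+/Meth. Counting it among the 2 lower genes therefore rests partly on that filter. Its level was also low in Tat+/Meth (5.11 ± 0.23), a change of −1.11 from Tat−/Sal that did not pass (limma, adjusted p = 0.778). A low Nr1h4 level was thus not particular to Tat−/Meth. Of 10 genes of retinoid supply and breakdown, 3 rose and 1 fell (40% in all). The median change of this list was 0.18, and −0.25 without scaling. Rdh10, which makes retinaldehyde, rose by 0.73 ± 0.08 and Crabp1, a retinoic acid binding protein, by 0.62 ± 0.09. Named after its value was seen, the gene that fell was Crabp2, another such binding protein, by 1.46 ± 0.26 (adjusted p = 0.000146).

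Against the same Tat−/Meth arrays, Tat+/Meth had 3 genes of the fatty acid list higher (8.82%) and 17 lower (50%), where 15.7% of all genes were higher and 37.7% lower. Hadha fell by 0.97 and Acaa2 by 0.60 there. Crtc1, a CREB coactivator, rose by 0.54 and Prkaa1 fell by 0.48, while Crabp2 rose by 1.66. In the comparisons without slide 1, 1 gene of the 6 lists passed: Ncoa6, a coactivator of these receptors, was lower by 0.32 in Tat+/Sal than in Tat−/Sal (adjusted p = 0.0497). The smallest p of the fatty acid list in Tat+/Meth against Tat+/Sal was that of Acads, 0.65 lower with an adjusted p of 0.242.

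**Figure D4:**
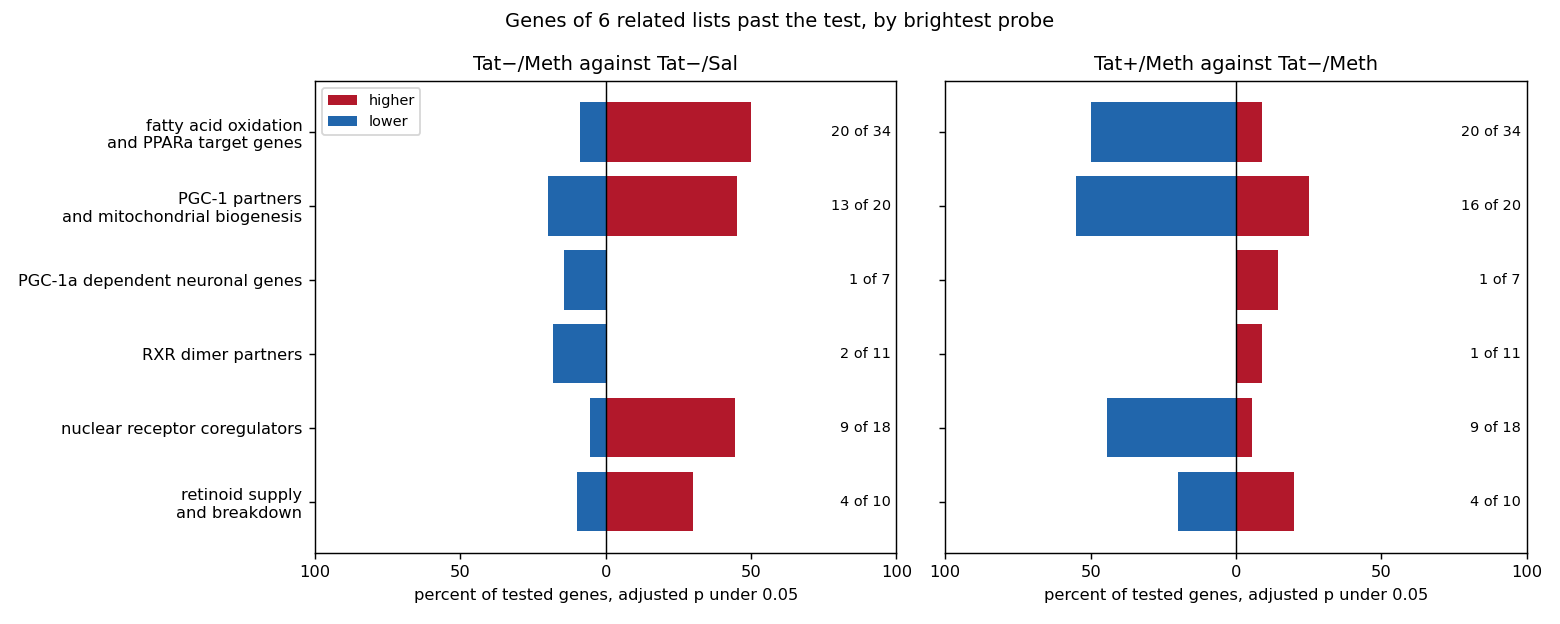
Bars give the percentage of tested genes of each list past an adjusted p of 0.05, higher to the right and lower to the left, by the brightest probe of each gene; the count that passed stands at the right of each bar. Of 34 fatty acid oxidation genes 20 passed in Tat−/Meth against Tat−/Sal, 17 of them higher, and the second panel shares the Tat−/Meth arrays.

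Marker lists of other cells are given beside these results, to be read against the 49.3% of all genes that passed in Tat−/Meth against Tat−/Sal. The summed signal of 6 microglial markers lay between 16.74 and 16.89 log2 units in Tat−/Meth and between 17.38 and 17.76 in the other groups. The groups were apart only with Itgam, which fell by 1.07 on its brightest probe, the 1 of 3 that was over 2-fold lower. Without it the sum of the other 5 lay between 15.51 and 15.65 in Tat−/Meth and between 15.49 and 15.89 elsewhere. P2ry12 fell by 0.35, and Cx3cr1 (0.20), Aif1 (−0.05), Tmem119 (0.00) and Csf1r (−0.10) did not pass. For 7 astrocyte markers the sum lay between 16.61 and 16.87 in Tat−/Meth and between 16.33 and 16.60 elsewhere. Of these markers 4 rose: Gja1 by 0.84, Slc1a3 by 0.31, S100b by 0.25 and Aldh1l1 by 0.19. Gfap, Aqp4 and Slc1a2 did not pass. The median change of the list was 0.25, against 0.14 over all genes on this scale and −0.28 over all genes without scaling. No sum without a single marker was made for this list. Of 9 striatal neuron markers 2 passed, both lower by less than 2-fold. The part of these cells in the changes of the members was not tested, and in tissue RNA fewer cells of a type cannot be told apart from less RNA per cell.

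The genes whose levels followed Ppara probe 1 most closely, over 20 arrays with group means subtracted and among 13986 genes, were Plxna1 and Slc16a1 (r = 0.98 each), then Ybx2, Dzip1 and Dhx8 (r = 0.97 each). Without the 2 arrays farthest from their group mean, Tat+/Sal replicates 4 and 2, r was 0.93 to 0.97. Taking probe 1 of each other member, the closest gene to Rxrg was Pacsin1 (r = 0.92), to Rxra Cd38 (r = 0.91), to Ppargc1b Unkl (r = 0.84), to Ppargc1a Slc6a6 (r = 0.91), to Ppard Brsk2 (r = 0.93), to Pparg Arel1 (r = 0.93), to Rxrb Qars (r = 0.88) and to Cpt1a Atp6v1h (r = 0.88). Where a gene has a second probe, that probe followed probe 1 at most loosely (r = 0.34 for Rxrg) or ran against it (r = −0.42 for Rxra). These partners therefore belong to the probe. These values describe arrays that share slides and labelling, and the highest of many correlations is high by selection.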

How the data were processed

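Arrays were 1-colour Agilent mouse arrays, 20 in all, 5 per group. The intensity values that the authors deposited are background-subtracted spot signals from Agilent Feature Extraction 10.7.3.1. The methods name another scanner and dye than the labels and file headers, which were followed. Control spots and 4278 outlier spots were left out, replicate spots were averaged as log2 values, and the 75th percentile was subtracted on every array and its mean over arrays added back. A probe was tested when at least 3 arrays per group had a value and 1 group mean reached 6. Gene names came from the transcript accession of each probe, matched to RefSeq (GRCm38.p6). Probes of a gene are numbered from the brightest by mean over all arrays. The precision is limited by 5 arrays per group.

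Groups came from the sample labels. limma 3.58.1 in R 4.3.3 was fitted to all 20 arrays with 1 mean per group, with Benjamini–Hochberg adjustment over 31516 probes, and was tested on simulated data. The labels say nothing of pooling, and p-values measure the spread between these arrays. Members, lists, tests and alternatives were chosen with earlier results of these data known. All members are named with every probe. From each list, the 2 genes with the smallest adjusted p among those that passed are named per comparison, and in the comparisons of Tat+/Meth with either saline group the gene with the smallest p, of which those that add to the text are given. The other cell marker lists (cortex and hippocampus, thalamus and cerebellum, oligodendrocytes, vessel cells, choroid plexus and ependyma, red blood cells, parvalbumin interneurons) had 2 of 5, 2 of 4, 2 of 7, 2 of 6, 0 of 6, 0 of 3 and 1 of 3 tested genes past the threshold in Tat−/Meth against Tat−/Sal. The replicate numbers were not used as pairs in the main fit: residual correlations of arrays with the same number ranged from −0.14 to 0.31. For 8 of the 20 arrays, the closest array of another group had the same number. The series matrix equalled the background-subtracted signal plus a constant per array (9.2 to 27.4) for 99.8 to 100% of probes with 1 spot, within 1% or 0.1, and was an alternative, with 7831 values below 1 set to 1. Other alternatives were quantile, median and no scaling, normexp with an offset of 50, other filters, rules for a gene's probe, slide as a block, the methods' t-test, other thresholds, the replicate block and each array left out. The study's qPCR was not used here.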

Additional observations from a re-analysis of the deposited data

Results flagged for a closer look

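Of 60 sets of 5 arrays (15 probes in 4 groups), 4 had an array far from the other 4, where chance gives about 1 in 20. Ppard read 10.45 on the Tat+/Meth replicate 4 (others 10.63 to 10.69) and Ppargc1b 10.27 on the Tat−/Sal replicate 4 (others 10.11 to 10.14). Rxrb read 14.42 on the Tat−/Meth replicate 5 (others 14.67 to 14.76) and Cpt1a probe 1 11.11 on the Tat−/Sal replicate 5 (others 10.91 to 10.95). No call in Tat−/Meth against Tat−/Sal was lost when any of these arrays was left out.

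The Meth effect differed between Tat+ and Tat− mice by the interaction test for 8 probes: 1.46 for Ppara probe 1, −0.38 for Ppard, −0.82 for Ppargc1a probe 2, 1.65 for Ppargc1b, 1.24 for Rxra probe 1, −0.33 for Rxrb, 1.18 for Rxrg probe 1 and −0.41 for Cpt1a probe 1. Their adjusted p-values ranged from 6.88e-08 to 0.00877. The Meth effect in Tat− mice cannot be told apart from slide 1.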

How the results depend on the processing

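Of 3378 recomputed probe values, 3265 counted as unchanged: they kept their side of the threshold and met 1 further condition. Those past it also kept their direction. Those not past it moved by less than the probe's SD within groups, and their sign could change. A further 33 values also stayed short of the threshold but moved by at least that SD. Of the 3265, 1798 came from fits with 1 array left out. In all 3 comparisons with 7 genes past the threshold, adding a 2-fold limit left 4, and an adjusted p under 0.01 with 3-fold left 0 in Tat−/Meth against Tat−/Sal and 1 in Tat+/Meth against Tat−/Meth and in the interaction. The second brightest probe, an alternative chosen after seeing the data, left 4 in each. The interaction had 4 under median scaling and 4 without scaling, and Tat+/Meth against Tat−/Meth had 4 without scaling. The methods' t-test without adjustment gave 2 in Tat+/Meth against Tat+/Sal, 2 in Tat+/Sal against Tat−/Sal and 1 in Tat+/Meth against Tat−/Sal. The limma count there was 0, and that t-test gave 11.1%, 16.6% and 8.18% of all probes, which are shares of probes and not of genes. With each array left out in turn the counts were 7 to 8 in Tat+/Meth against Tat−/Meth, 7 in the first comparison and the interaction and 0 elsewhere. With the replicate block, the replicate numbers as pairs, the counts were 7, 7 and 7 and otherwise 0, so that it changed no count.

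A value is listed here as turned where its sign changed and it passed in the main fit or without scaling. Without scaling, these were Ppara probe 3 (−0.28), Ppard (−0.10), Rxrb (−0.20), Cpt1a probe 1 (−0.046) and Cpt1a probe 2 (−0.36) in Tat−/Meth against Tat−/Sal. The median of all probes there was −0.32, against 0.22 under median scaling. Ppard (0.12) and Rxrb (0.11) turned in Tat+/Meth against Tat−/Meth, and Ppara probe 3 (0.41), Ppard (0.10), Rxrb (0.15) and Cpt1a probe 1 (0.072) in the interaction. Values that passed in neither fit also changed sign and are not all listed. Ppargc1a probe 1 was 1 of them, with −0.27, 0.017 and 0.36 in these comparisons in the same order. In Tat−/Meth against Tat−/Sal the falls of Ppara, Ppargc1b, Rxra and Rxrg on probe 1 were past an adjusted p of 0.05 under each alternative except the 3-fold limit.

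Limits are 5 arrays per group, a slide held by 1 group, 1 probe for Ppard, Pparg, Ppargc1b and Rxrb, and probes whose place in the transcript was not analysed here.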
